A study of Ursus arctos with 12 samples.

Results

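The 10 genes described here are the vascular endothelial growth factor (VEGF) ligands VEGFA, VEGFB and VEGFC, their receptors KDR, FLT1 and FLT4, the angiopoietins ANGPT1 and ANGPT2, and the receptors TEK and TIE1. They were taken by symbol from the 30249 genes of the count table, and all 10 were found and had enough reads to be tested. RNA came from vastus lateralis, a thigh muscle, of 6 free-ranging brown bears (Ursus arctos) of 2 to 3 years of age. Each bear was biopsied during winter hibernation and again in its summer active period of the same year, and no treatment other than season separated the 12 libraries. Season was read from the labels, and the libraries of a bear share its number, so that winter could be compared with summer within an animal. A biopsy mixes muscle fibres with vessels, connective tissue and blood, and the bears were wild animals whose feeding, activity and temperature all change with the season.

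VEGF ligands are secreted proteins that direct the growth, survival and permeability of vessels. VEGFA signals mainly through KDR on endothelial cells, while FLT1 binds VEGFA, VEGFB and placental growth factor and can hold VEGFA away from KDR. VEGFC and its receptor FLT4 are best known for lymphatic vessels. ANGPT1 activates the receptor TEK (TIE2) and keeps resting vessels stable, ANGPT2 can oppose it, and TIE1 is a partner receptor of TEK. In skeletal muscle, fibres are a main source of VEGFA and the receptors sit largely on the capillary endothelium.

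Between 20191068 and 27283155 reads per library were counted on genes in summer and between 16742406 and 32140160 in winter. Levels are given as log2 CPM, the log2 of a library's counts scaled to a common total (CPM) with TMM factors and a prior count of 2, and they depend on gene length, so that levels of different genes are not ranked. A season difference was called at an adjusted p below 0.05 in edgeR's quasi-likelihood test with the bear as a block. Adjustment was over the 17290 genes tested. SE is the standard error of the log2 fold change, derived as its absolute value over the square root of the test's F statistic. On the second principal component (14.6% of the variance) the winter library of bear 1509, at −98.6, was apart from the 5 remaining winter libraries (6.35 to 23.1). Muscle fibre transcripts were abundant in each library, with at least 30870 reads for each of the 8 tested fibre markers.

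In winter, 6 of the 10 genes were lower and 0 were higher. Lower were the ligands VEGFA, VEGFB and ANGPT1 and the receptors KDR, FLT4 and TIE1, with winter levels between 0.436 and 0.693 of those in summer. No season difference was called for VEGFC, ANGPT2, FLT1 and TEK. Over all genes tested, 40.8% were called, 21.2% lower and 19.6% higher. At an unadjusted p below 0.05 edgeR also gave 0 of the 10 higher, and DESeq2 and limma voom with the same block called 6 lower and 0 higher. In edgeR without the block, 5 of the 10 were lower, where 39.5% of all genes were called and 19.9% were lower, and DESeq2 without the block called 6 lower. The median log2 fold change of the 10 genes was −0.54, against −0.0054 over all genes tested. In single bears this median lay between −0.63 and −0.41, with 7 to 10 of the 10 genes lower. Narrower limits, with the adjusted p under 0.01 and the fold outside 0.77 to 1.3, kept 4 of the 10, VEGFA, VEGFB, KDR and ANGPT1, and 25.7% of all genes (13.4% lower and 12.2% higher). In bulk muscle, fewer cells of a type and less RNA per cell cannot be told apart.

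**Figure D1:**
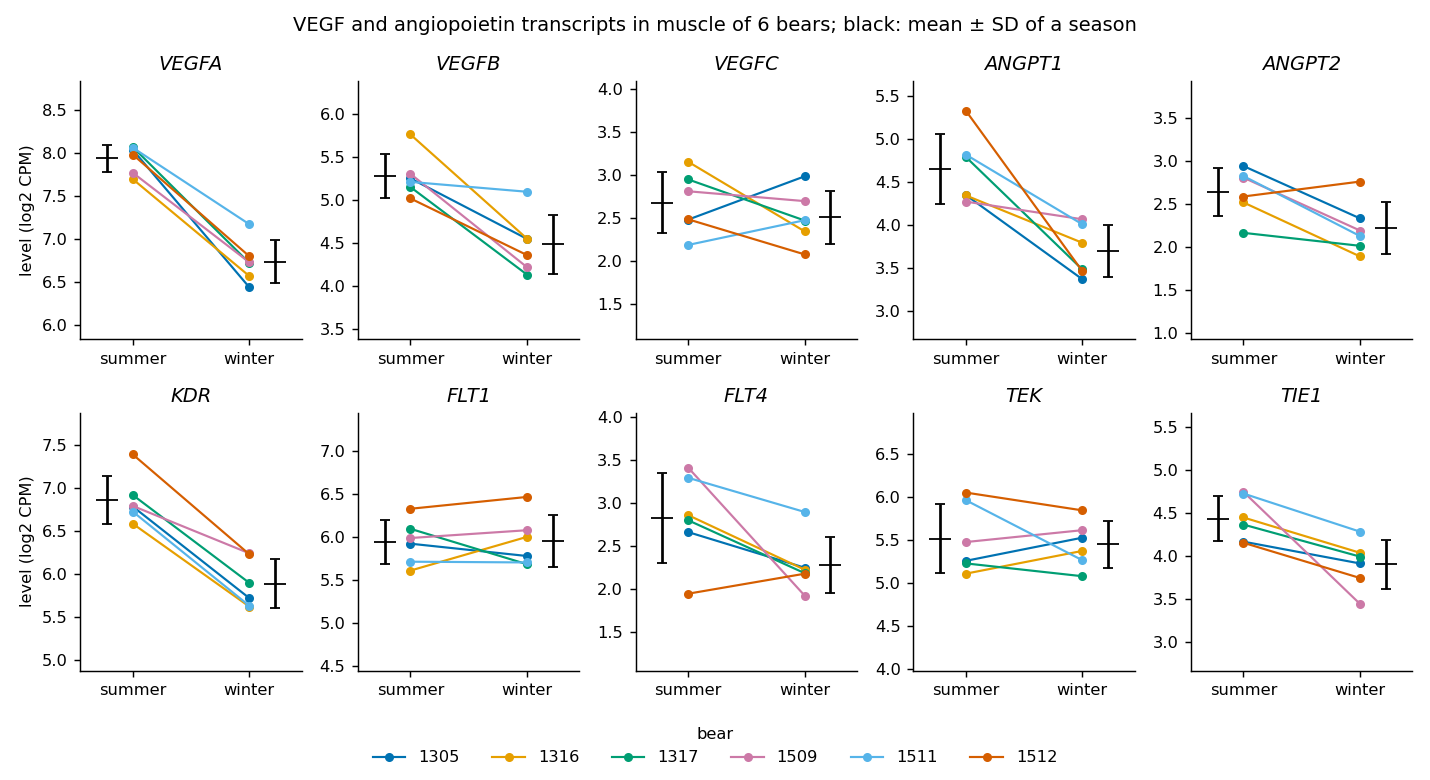
Level of each of the 10 genes in summer and winter (log2 CPM, each panel spanning 3 log2 units), with 1 line per bear and the mean ± SD of each season in black. The lines of VEGFA, KDR and ANGPT1 all run downward with no overlap between the seasons, whereas those of FLT1, TEK and VEGFC run in both directions.

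VEGFA, which muscle fibres and other cells secrete, lay at 7.69 to 8.07 log2 CPM in summer (median 8.01) and at 6.44 to 7.17 in winter (median 6.72), from 1870 to 7203 reads per library. The highest winter library, that of bear 1511, remained below the lowest summer library, that of bear 1316. Seasons without overlap were found for 3 of the 10 genes, all with winter lower, and over all genes tested for 8.21% with winter lower and 9.12% with winter higher. The log2 fold change was −1.20 (SE 0.12, adjusted p = 5.03e-05), and single bears ranged from −1.60 to −0.89. Of all genes tested, 8.15% had a lower log2 fold change than VEGFA.

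VEGFB, a ligand of FLT1 that is abundant in heart and muscle, lay at 5.02 to 5.77 log2 CPM in summer (median 5.24). In winter it lay at 4.14 to 5.10 (median 4.46), with the library of bear 1511 at the top and above the lowest summer value. Winter was lower in 6 of 6 bears, with a log2 fold change of −0.80 (SE 0.14, adjusted p = 0.00153), from −1.21 in bear 1316 to −0.11 in bear 1511.

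VEGFC, the lymphatic growth factor, was counted at only 91 to 192 reads per library. It spanned 2.19 to 3.16 log2 CPM in summer (median 2.65) and 2.08 to 2.99 in winter (median 2.47). The seasons overlapped over nearly their whole range, with 4 of 6 bears lower and single bears from −0.81 to 0.50. Its log2 fold change of −0.17 (SE 0.19, adjusted p = 0.488) was within the spread between bears and ran from −0.33 to −0.039 with 1 bear left out.

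The VEGF receptors did not move alike. KDR, the main signalling receptor of VEGFA, lay at 6.59 to 7.39 log2 CPM in summer (median 6.79) and at 5.62 to 6.24 in winter (median 5.81). Every winter library was below every summer library, and bear 1512 was the highest of the summer libraries. KDR fell by 0.98 on the log2 scale (SE 0.11, adjusted p = 9.66e-05). Differences of single bears ranged from −1.16 to −0.55, the smallest fall being that of bear 1509. Without bear 1509 it was −1.05 (adjusted p = 4.77e-05).

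FLT1, the other receptor of VEGFA, stayed close to its summer level. It lay at 5.61 to 6.33 log2 CPM in summer (median 5.96) and at 5.69 to 6.47 in winter (median 5.89), and bear 1512 was the highest in both seasons. Of the 6 bears, 3 were higher and 3 lower in winter. Its log2 fold change was 0.0097 (SE 0.12, adjusted p = 0.955), and its sign turned with library totals in place of TMM (−0.068).

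The reads of KDR relative to those of FLT1 were compared within each library, a ratio that scaling leaves nearly untouched. The log2 ratio was 0.80 to 1.06 in summer (median 0.92) and −0.38 to 0.21 in winter (median −0.066). It was lower in winter in 6 of 6 bears. The differences ran from −1.36 to −0.61, with a mean of −0.99 ± 0.32 (SD, n = 6 bears). A two-sided exact sign-flip permutation test gave p = 0.03125, the smallest that 6 pairs allow, and 0.156 after Benjamini-Hochberg adjustment over the 5 ratios tested. With that floor, a single ratio could not pass alone after adjustment, whatever its difference. With the libraries taken as unpaired, which ignores the pairing and allows smaller p values, the adjusted exact p was 0.0108. The other ratios were VEGFA over VEGFB, TEK over TIE1, ANGPT2 over ANGPT1 and FLT4 over KDR, with exact p values from 0.125 to 0.281 before adjustment. FLT4 over KDR was higher in winter in 5 of 6 bears, by 0.42 ± 0.77 (SD, n = 6 bears). It stood at 0.70 without bear 1509 and at 0.23 without bear 1512.

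FLT4, the receptor of VEGFC and a lymphatic endothelial gene, was counted at 67 to 243 reads per library. It lay at 1.94 to 3.41 log2 CPM in summer (median 2.83) and at 1.92 to 2.89 in winter (median 2.20). The seasons overlapped, and bear 1512, which had the lowest summer level, was the one bear of 6 that was higher in winter. In the fit FLT4 stood at −0.56 (SE 0.20, adjusted p = 0.0472). This call was close to the threshold and was lost in edgeR without the bear as a block (adjusted p = 0.0534, against 0.0378 in DESeq2 without it), and in edgeR without bear 1305 (0.0772), 1316 (0.0999), 1317 (0.0979), 1509 (0.103) or 1511 (0.0784). Bear 1509 had the largest fall, −1.49, and without it the log2 fold change was −0.36.

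**Figure D2:**
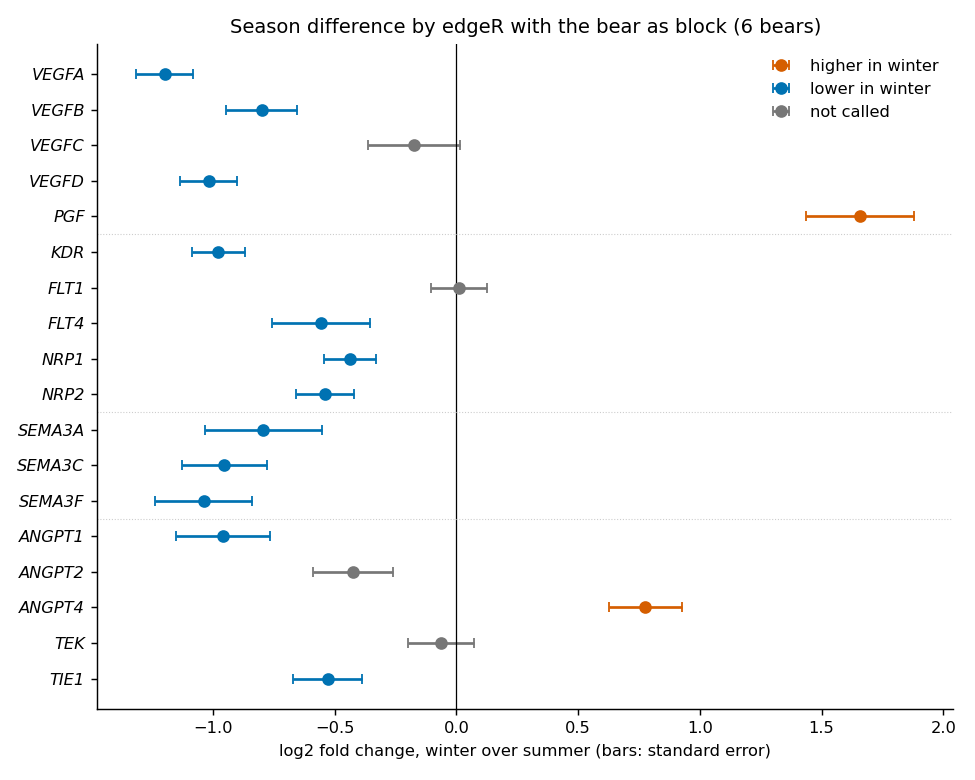
Log2 fold change of winter over summer with its standard error (edgeR with the bear as block, 6 bears) for the 10 genes, and for 8 related ligands and co-receptors. VEGFA, VEGFD, KDR, SEMA3C, SEMA3F and ANGPT1 lie near −1, FLT1 (0.0097) and TEK (−0.063) lie near no change, and PGF and ANGPT4 are on the winter side.

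Of the angiopoietins, ANGPT1 was called lower and ANGPT2 was not called. ANGPT1 lay at 4.27 to 5.33 log2 CPM in summer (median 4.57) and at 3.37 to 4.07 in winter (median 3.64). The seasons did not overlap, and the bears differed widely in the size of the fall, from −0.21 in bear 1509 to −1.87 in bear 1512. ANGPT1 had a log2 fold change of −0.96 (SE 0.19, adjusted p = 0.00272). It was −0.77 without bear 1512 (adjusted p = 0.00734) and −1.10 without bear 1509 (adjusted p = 0.00104).

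ANGPT2, which endothelial cells store and release, was counted at 70 to 208 reads per library. It lay at 2.16 to 2.94 log2 CPM in summer (median 2.69) and at 1.89 to 2.76 in winter (median 2.16). It was lower in 5 of 6 bears, and the exception was bear 1512, at 0.17. Its log2 fold change of −0.43 (SE 0.16, adjusted p = 0.059) missed the threshold, and over the alternatives its adjusted p ran from 0.0298 to 0.146. ANGPT2 passed with library totals in place of TMM (−0.50, adjusted p = 0.0298) and without bear 1512 (−0.55, adjusted p = 0.0302). The log2 ratio of ANGPT2 over ANGPT1 ran from −2.75 to −1.41 in summer and from −1.91 to −0.71 in winter, a difference of 0.53 ± 0.91 (SD, n = 6 bears) that was within the spread between bears (exact permutation p = 0.281) and stood at 0.23 without bear 1512.

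TEK, the receptor of both angiopoietins, lay at 5.11 to 6.06 log2 CPM in summer (median 5.37) and at 5.08 to 5.85 in winter (median 5.45). It was higher in 3 bears and lower in 3, and bear 1511 had the largest change, −0.70. Its log2 fold change was −0.063 (SE 0.14, adjusted p = 0.739), and without bear 1511 it was 0.065 (adjusted p = 0.696).

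TIE1 lay at 4.16 to 4.75 log2 CPM in summer (median 4.41) and at 3.45 to 4.29 in winter (median 3.96). The seasons overlapped, yet each bear was lower in winter than in its own summer sample (6 of 6), with bear 1509 at −1.30 and the others from −0.44 to −0.25. The log2 fold change was −0.53 (SE 0.14, adjusted p = 0.0129), and without bear 1509 it was −0.37 (adjusted p = 0.0149). TEK over TIE1 was higher in winter in 5 of 6 bears, by 0.47 ± 0.57 on the log2 scale (SD, n = 6 bears), which an exact sign-flip permutation test did not separate from the spread (p = 0.125), and by 0.27 without bear 1509.

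The bears differed in which of the 10 genes moved most. In bear 1305 VEGFA had its largest fall of the 6 bears, −1.60, while VEGFC (0.50) and TEK (0.27) were higher in winter. Bear 1316 had the largest fall of VEGFB, −1.21, and the highest difference of FLT1, 0.39. In bear 1317 each of the 10 genes was lower in winter, FLT1 (−0.41) included. Bear 1509, whose winter library stood apart, combined the largest falls of FLT4 (−1.49) and TIE1 (−1.30) with the smallest falls of ANGPT1 (−0.21) and KDR (−0.55). Bear 1511 had the smallest falls of VEGFA (−0.89) and VEGFB (−0.11), beside the largest falls of TEK and ANGPT2, both −0.70. Bear 1512 had the largest falls of ANGPT1 (−1.87) and KDR (−1.16), and it was the bear in which FLT4 (0.23) and ANGPT2 (0.17) were higher in winter. VEGFA, VEGFB, KDR, ANGPT1 and TIE1 were lower in 6 of 6 bears, which held for 19% of all genes tested. With 1 library per bear and season, differences between bears have no replicate check.

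Of the 8 other ligands and co-receptors listed, 6 were lower and 2 higher in winter. VEGFD, a ligand of FLT4, fell by 1.02 (SE 0.12, adjusted p = 0.000121) on the log2 scale. PGF, placental growth factor, a ligand of FLT1, was counted at 22 to 34 reads per summer library and 43 to 108 per winter library. Its log2 fold change was 1.66 (SE 0.22, adjusted p = 0.000278), higher in 6 of 6 bears with no overlap. ANGPT4, a further ligand of TEK, was also higher in 6 of 6 bears, with a log2 fold change of 0.78 (SE 0.15, adjusted p = 0.00222). Among the ligands, VEGFA, VEGFB, VEGFD and ANGPT1 were therefore called lower and PGF and ANGPT4 higher.

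The neuropilins NRP1 and NRP2, co-receptors that bind both VEGF and semaphorins, had log2 fold changes of −0.44 (adjusted p = 0.00851) and −0.54 (adjusted p = 0.0044), lower in 6 of 6 bears each. The 3 listed class 3 semaphorins, secreted proteins that compete for neuropilins, were called lower. SEMA3C stood at −0.95 (adjusted p = 0.00165) and SEMA3F at −1.04 (adjusted p = 0.00225). SEMA3A, at −0.79 (adjusted p = 0.0219) and with 18 to 128 reads per library, was not called in edgeR without the block (0.0714, against 0.049 in DESeq2 without it) or without bear 1317 (0.063), 1511 (0.0772) or 1512 (0.0841).

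The receptor genes were next set beside markers of the cells that carry them. Of 13 pan-endothelial markers, 12 had enough reads. Winter was lower for 5 of the 12 and higher for 2. The summed level of the 12 was 642 to 917 CPM in summer and 466 to 557 CPM in winter, without overlap. Such a sum is weighted towards the markers with the most reads, here VWF, PECAM1 and CDH5, each called lower. It does not show the 2 markers that were higher or the 5 that were not called. VWF, the clotting factor that endothelial cells store, fell by 1.26 (adjusted p = 0.000169), and CDH5, the cadherin of endothelial junctions, by 1.01 (adjusted p = 0.000121) on the log2 scale, while MMRN2, an endothelial matrix protein, stood at −0.67 (adjusted p = 0.0284). ERG, an endothelial transcription factor, rose by 0.46 (adjusted p = 0.00557) and CLDN5, a tight junction protein, by 0.78 (adjusted p = 0.0319). The call of CLDN5 was lost without bear 1305 (0.0737), 1317 (0.0806), 1511 (0.0962) or 1512 (0.0628), and that of MMRN2 without bear 1316 (0.0738), 1317 (0.0518) or 1511 (0.0759). Without bear 1509 MMRN2 was called at −0.44 (0.0463). EGFL7, the marker left out, had 22 reads over the 12 libraries and was at 0 in 5 of them.

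The mean of the 12 markers changed by −0.34 ± 0.31 log2 CPM (SD, n = 6 bears), lower in 5 of 6 bears (two-sided exact sign-flip permutation test, p = 0.0625). Relative to this mean, KDR stood at −0.64 ± 0.50 (winter minus summer, SD, n = 6 bears), lower in 5 of 6 bears, with bear 1509 the exception at 0.30. The exact p was 0.0625 (0.281 adjusted over the 6 genes compared in this way). TIE1 relative to the markers was at −0.19 ± 0.20 (exact p = 0.0938) and FLT4 at −0.22 ± 0.42 (exact p = 0.25), whereas FLT1 was at 0.35 ± 0.53 (exact p = 0.25) and TEK at 0.27 ± 0.51 (exact p = 0.281). Without bear 1509 these stood at −0.83 for KDR, −0.14 for TIE1, −0.13 for FLT4, 0.23 for FLT1 and 0.13 for TEK. ANGPT2 was at −0.084 ± 0.33 (exact p = 0.562). None of these 6 differences passed after adjustment (0 of 6 in the exact test), while 0.03125 is the smallest unadjusted p that 6 pairs allow. With that floor, a single gene could not pass alone after adjustment over the 6, whatever its difference.

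**Figure D3:**
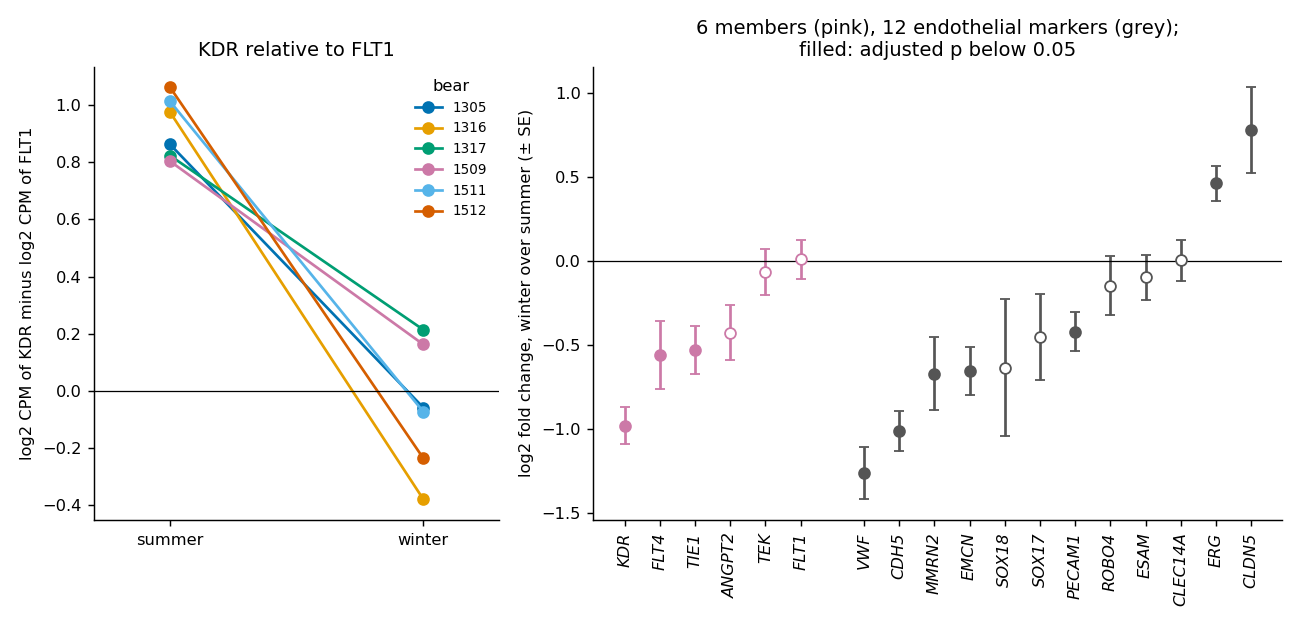
Left, log2 CPM of KDR minus that of FLT1 in each bear, which falls in 6 of 6 bears from 0.80 to 1.06 in summer to −0.38 to 0.21 in winter. Right, log2 fold change of winter over summer with its standard error for 6 of the genes (pink) and 12 endothelial markers (grey), filled where the adjusted p is below 0.05, which run from VWF at −1.26 to CLDN5 at 0.78.

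Transcripts of other cells of the biopsy moved too. Of the 6 lymphatic markers, 2 were lower and 1 was higher, where 40.8% of all genes were called. CCL21, a chemokine of lymphatic vessels, fell by 2.45 (adjusted p = 0.000345) and PDPN by 1.14 (adjusted p = 0.00123) on the log2 scale, while PROX1, the transcription factor of lymphatic identity that muscle fibres also express, rose by 0.69 (adjusted p = 0.00131). Of 10 markers of mural cells, the pericytes and smooth muscle cells that wrap vessels and produce ANGPT1, 6 were lower and 0 higher in edgeR, also at an unadjusted p below 0.05 (0 higher in DESeq2 and limma voom as well). CNN1, at −1.42 (adjusted p = 0.0143), RGS5, at −1.41 (adjusted p = 9.81e-05), and MCAM, at −1.33 (adjusted p = 0.000723), fell most. CNN1 had only 7 to 136 reads per library (SE 0.39), with overlapping seasons and single bears from −3.34 to −0.0035. Summed mural markers stood at 672 to 848 CPM in summer and 446 to 561 CPM in winter.

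The summed level of 6 fibroblast markers, 5 of them lower, was 3267 to 8205 CPM in summer and 262 to 1660 CPM in winter. Within it COL1A1 and COL3A1, the collagens, stood at −5.17 and −5.08, LUM at −2.13, FBN1 at −1.93 and DCN at −0.91. PDGFRA (−0.46, adjusted p = 0.0778) was not called. Without the block, 3 of the 6 were lower in edgeR and in DESeq2. Macrophage and leukocyte markers, 4 of 6 lower, summed to 57.0 to 109 CPM in summer and 40.7 to 69.9 CPM in winter. Among them CD14 stood at −1.10 (adjusted p = 0.00203), CSF1R at −0.67 (adjusted p = 0.00849) and PTPRC at −0.57 (adjusted p = 0.0443). The call of PTPRC was lost in 7 of 14 alternatives, among them edgeR without the block (0.0676) and limma voom (0.0504). The 8 fibre markers summed to 112750 to 188330 CPM in summer and 121140 to 160120 in winter, a sum that does not show opposite shifts. Of them 2 were lower and 2 higher, where 40.8% of all genes were called. MB stood at −1.02 (adjusted p = 0.00066) and ACTA1 at −0.91 (adjusted p = 0.0152), against TTN at 0.65 (adjusted p = 0.00675) and NEB at 0.51 (adjusted p = 0.0149). ACTA1 and NEB each lost the call in 1 of 14 alternatives. Adipocyte markers (4 genes, 16.4 to 486 CPM in summer and 8.27 to 183 in winter) and red blood cell markers (2 tested, 3.17 to 65.6 and 34.4 to 56.8 CPM) gave 0 calls in edgeR with the block. At an unadjusted p below 0.05 this count was 1, for LEP, a gene named after its value was seen. Higher was 1 adipocyte gene in DESeq2 with and without the block, in edgeR without it, and without bear 1305 or 1316, and 1 red blood cell gene without bear 1509. The part of these cell types in the values of the 10 genes was not tested.

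Beyond ligands and receptors, 74 tested genes of the pathway in 7 lists gave 37 lower and 7 higher, the 8 related ligands and co-receptors included, where 21.2% of all genes were lower and 19.6% higher. The lists were chosen with earlier results of these data known, so these shares are a description and no test of an excess. In the list of VEGF receptor signalling, 7 of 19 were lower and 1 higher, a share of calls close to the 40.8% of all genes. HSPB1, a heat shock protein phosphorylated downstream of KDR and abundant in muscle fibres themselves, fell by 2.11 (adjusted p = 5.48e-05), the kinase SRC by 1.28 (adjusted p = 0.000359) and the phosphatase PTPN6 by 0.96 (adjusted p = 0.00917) on the log2 scale. PXN, the focal adhesion adaptor paxillin, rose by 0.68 (adjusted p = 0.00166). Without bear 1509, 2 genes of this list were higher.

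Around the TIE receptors, 3 of 9 genes were lower and 1 higher, a share of calls close to the 40.8% of all genes. SVEP1, an extracellular ligand of TIE1, fell by 1.50 (adjusted p = 0.000173), the integrin ITGA5 by 1.33 (adjusted p = 5.91e-05) and PTPRB, the endothelial phosphatase that acts on TEK, by 0.49 (adjusted p = 0.00695) on the log2 scale. FOXO3, a transcription factor held out of the nucleus by kinase signalling downstream of TEK among other receptors, rose by 0.77 (adjusted p = 0.00442).

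Of 11 genes listed as induced by VEGF or marking VEGF-exposed endothelium, 6 were lower and 0 higher in edgeR, also without adjustment, with 0 higher in DESeq2 and limma voom. ESM1, a secreted proteoglycan of endothelial tip cells, had 19 to 104 reads per summer library and 0 to 14 per winter library, and its log2 fold change was −2.62 (adjusted p = 0.00136). APLNR, the apelin receptor of endothelial cells, fell by 2.21 (adjusted p = 1.1e-05) in 6 of 6 bears. ANGPTL2, an angiopoietin-like secreted protein that does not bind TEK and is made by other cells as well, stood at −1.78 (adjusted p = 2.68e-05). The median log2 fold change of the list was −1.13.

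Of 10 listed antagonists of VEGF signalling, 9 were lower and 0 higher in edgeR, also without adjustment, and 0 were higher in DESeq2 and limma voom. SPRY4, an inhibitor of receptor tyrosine kinase signalling that is itself induced by it, stood at −2.37 (adjusted p = 0.000253). VASH1, an endothelial inhibitor of angiogenesis that VEGF induces, stood at −2.34 (adjusted p = 5.47e-06), with 6 of 6 bears lower. COL18A1, the collagen from which endostatin is cut, stood at −1.19 (adjusted p = 0.0202), and its adjusted p was 0.0677 without bear 1316. SPRY1, the antagonist not called, was at −0.071 (adjusted p = 0.75), and without the block 7 were lower in edgeR and in DESeq2. The median log2 fold change of the 10 was −0.99.

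In the list for maturation of VEGFC, a protease that cuts the precursor and its cofactor moved in opposite directions. ADAMTS3, the protease, rose by 1.83 (adjusted p = 0.000459) on the log2 scale, while CCBE1, the scaffold that brings VEGFC to it, fell by 1.50 (adjusted p = 0.00161), each in 6 of 6 bears. PCSK5, a proprotein convertase, fell by 1.81 (adjusted p = 0.00012). This list of 6 gave 2 lower and 1 higher, where 40.8% of all genes were called. It gave 2 higher in limma voom, in DESeq2 without the block, without the filter or with filterByExpr, and without bear 1316 or 1509.

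Genes known to control VEGFA mRNA gave 4 lower and 2 higher of 11. EPAS1, the hypoxia-inducible factor HIF-2α, which endothelial cells express strongly, fell by 0.62 (adjusted p = 0.00225) on the log2 scale. EGLN1, an oxygen-dependent inhibitor of these factors, rose by 0.61 (adjusted p = 0.00192). ARNT, their shared partner subunit, had a log2 fold change of 0.28 (adjusted p = 0.0289), which was not called with library totals (0.194), without the filter (0.0792), or without bear 1305 (0.103) or 1512 (0.0781). ESRRA, a nuclear receptor that drives VEGFA in exercised muscle, stood at −0.51 (adjusted p = 0.0322) and was not called without bear 1305 (0.0527), 1316 (0.0593) or 1317 (0.0698). Without bear 1509 ESRRA was called at −0.31 (0.0399). ELAVL1, which stabilizes VEGFA mRNA, stood at −0.47 (adjusted p = 0.0119). Chosen after their values were seen, HIF1A (−0.15, adjusted p = 0.266) and PPARGC1A (−0.017, adjusted p = 0.943), the partner of ESRRA, were not called. EGLN3, chosen in the same way, went opposite to EGLN1 and was called lower at −0.42 (adjusted p = 0.0366), with 4 of 6 bears lower. The number lower was 2 without bear 1305, 1316 or 1317.

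**Figure D4:**
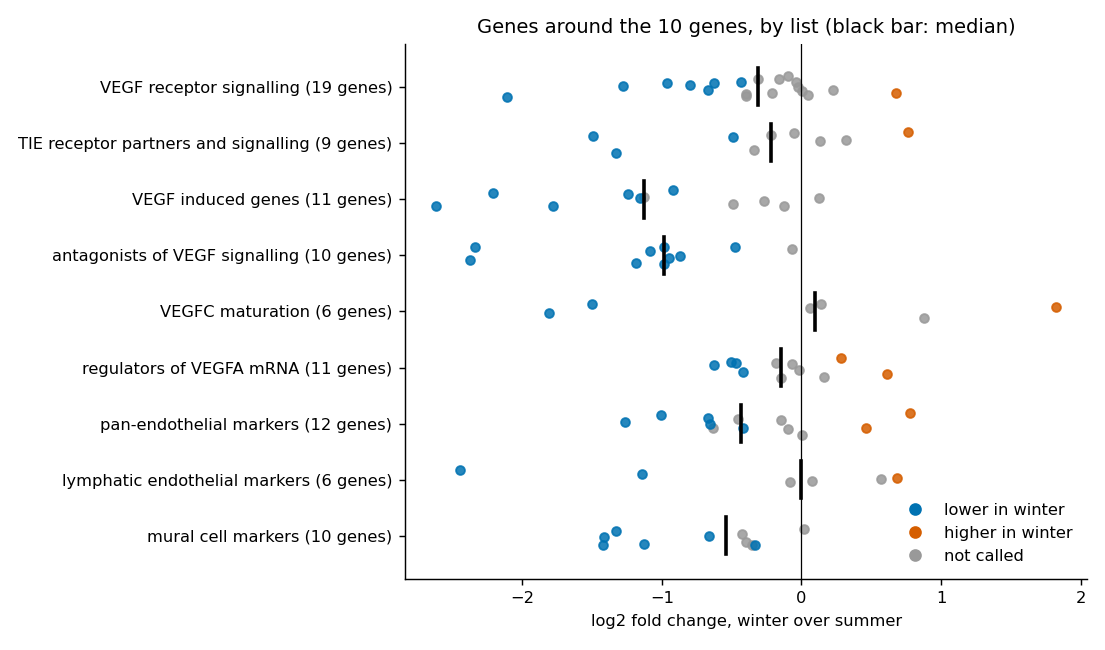
Log2 fold change of winter over summer for each tested gene of 9 lists around the 10 genes, coloured by call, with the median of a list as a black bar. The genes induced by VEGF and the antagonists of VEGF signalling lie furthest to the left, with medians of −1.13 and −0.99, and the list for VEGFC maturation spreads to both sides.

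The genes whose level ran most like VEGFA, KDR and TEK over the 12 libraries were taken by Pearson's r among 10344 named genes, as a description. For VEGFA these were PLOD1, a collagen lysyl hydroxylase (r = 0.98), RSAD1 (0.973) and RFTN1 (0.97). All 3 were lower in winter, and their r with VEGFA was 0.0783 to 0.645 within the 6 summer libraries and 0.754 to 0.949 within the 6 winter libraries, and the pooled value includes the difference between the seasons. For KDR they were FAM210B (r = 0.982), GTPBP10 (0.979) and KLHL31 (0.972), which were lower by log2 fold changes of −1.19 to −1.05. Here r was 0.829 to 0.922 within summer and 0.899 to 0.956 within winter. TEK ran most like CBFB (r = 0.915), ZNF697 (0.86) and VPS13A (0.835), none of which was called (0 of 3), with r of 0.869 to 0.901 within summer and 0.758 to 0.962 within winter.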

How the data were processed

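Stranded poly-A libraries were prepared from the biopsies, and single-end reads were aligned by the authors with TopHat 2.1.1 against ASM358476v1, a brown bear genome assembly, and were counted per gene and strand with featureCounts 1.6.2. The deposited values are these raw counts, neither normalized nor filtered by the authors. Genes with a total below 30 reads were not tested (12959 of 30249 genes, 0.019% of reads). The paper reports that the libraries were divided equally between lanes, but the lane of each library is not given in the sources used here. Whether lane coincided with season is therefore not known, and a lane effect was not tested.

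Counts were scaled by TMM and fitted with glmQLFit and glmQLFTest in edgeR 4.0.16 (R 4.3.3), with bear and season as terms, and p values were adjusted by Benjamini-Hochberg over 17290 genes. The pairing comes from the bear numbers in the labels and from the study's methods, by which both samples of a number are from the same animal. After subtracting each season's mean, the paired libraries correlated at 0.0903 to 0.344 and libraries of different bears at a median of −0.0634. No library was a copy of another, the lowest chi-square per gene within a season being 42.3, where counting noise gives about 1. Ratios and marker comparisons used two-sided exact sign-flip permutation tests over the bears. The alternatives were no replicate block, DESeq2 1.42.0, limma 3.58.1 voom, RLE, library totals, other filters, other limits and each bear left out. The fits were tested on simulated data.

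The 10 genes and the lists were chosen with earlier results of these data known. Named from each list were up to 3 genes called higher and 3 called lower with the largest log2 fold changes. All 10 genes and all related ligands and co-receptors were named as well. Further genes, among them SPRY1, FBN1, DCN and PDGFRA, were named after their values were seen. Of the listed genes, NRARP, MYL1, MYH7 and HBB were not found under these symbols and are not analysed here, and SH2D2A, GRB7, EGFL7, SLC4A1 and HEMGN were under 30 reads. Figures were drawn with matplotlib 3.10.9.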

Additional observations from a re-analysis of the deposited data

Results flagged for a closer look

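In 5 cases of the 58 groups of 6 libraries examined, 1 library lay apart from the other 5 by Dixon's 95% criterion (the gap to the nearest library as a share of the range), and chance flags about 1 group in 20. FLT4 in the winter library of bear 1511 was at 2.89 log2 CPM, with the other winter libraries at 1.92 to 2.24. Relative to the endothelial markers it was at −1.46 in that library, with the others at −2.37 to −2.09. FLT4 over KDR in the summer library of bear 1512 was at −5.45 on the log2 scale, with the others at −4.13 to −3.39. VEGFD in the summer library of bear 1316 was at 3.67 log2 CPM, with the others at 4.23 to 4.52, and ANGPT4 in the summer library of bear 1305 was at 3.36, with the others at 2.55 to 2.79.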

How the results depend on the processing

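Over 14 alternatives for each of the 10 genes, 127 of 140 values kept their direction and their side of the threshold. VEGFA, VEGFB, KDR, ANGPT1 and TIE1 were called under each of the 14, and VEGFC under none (0). FLT4 lost its call in 6 and ANGPT2 gained one in 2, as given above. FLT1, not called under any, turned sign with library totals (−0.068), without the filter (−0.0037) and, over the bears left out, within −0.063 to 0.095, and TEK ran from −0.14 to 0.065. The number of the 10 genes called ran from 4 to 7 (5 to 7 with 1 bear left out), with 0 higher throughout. The edgeR fit without the replicate block called 5 of the 10, FLT4 being the one lost, and 6831 genes in all against 7055 with it. An adjusted p below 0.01 with the fold limits gave 4440 genes, 2115 higher and 2325 lower, in place of 7055, 3392 and 3663. KDR over FLT1 (−0.99) passed the threshold only as unpaired libraries, a setting that ignores the pairing and allows smaller p values. With 1 bear left out KDR over FLT1 ran from −1.06 to −0.91, where 5 pairs cannot pass. ANGPT2 relative to the endothelial markers ran from −0.18 to 0.0013. Of the genes with levels like TEK, VPS13A stood at −0.046 with library totals, and with 1 bear left out CBFB ran from −0.074 to 0.046, ZNF697 from −0.18 to 0.0043 and VPS13A from −0.062 to 0.11. The other gene and list values kept direction and side in 1199 of 1260 cases. The cause of these changes was not tested. VEGFC, FLT4, ANGPT2, PGF and SEMA3A, which have few reads, had standard errors of 0.16 to 0.24. ANGPT1 (197 to 1026 reads) had 0.19 and VEGFD (144 to 601 reads) 0.12. VEGFC and PGF kept direction and side under all 14 alternatives.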
